A study of Saccharomyces cerevisiae with 10 samples.

Results

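Sterol genes of budding yeast were followed through a shift from dextrose to ethanol. The set holds 32 genes picked by name: 23 enzymes or scaffolds of ergosterol synthesis, 2 electron donors, 2 sterol esterification enzymes, 4 regulators and HES1. All 32 were matched to a probe set, out of 5449 genes measured, and each had a single probe set, with none of them marked as shared between genes. They were listed by function, with earlier results of these data known.

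The mRNA came from a pool of barcoded PCA strains in the S288c background, grown in minimal medium with dextrose and moved to minimal medium with ethanol and methotrexate at 30 °C. The strains are diploids, each with 2 proteins fused to fragments of a methotrexate-resistant dihydrofolate reductase, and every time point holds the same pool. Samples were taken at the transfer (0 h) and 0.5, 1, 4 and 12 h later, with 2 Affymetrix GeneChip arrays at each time. The labels call these arrays biological replicates. Whether they came from separate cultures is not stated, so the p-values measure the spread between arrays, part of which may be technical. The sources describe the dextrose pre-culture both with and without methotrexate, so in a comparison with 0 h the drug and the carbon source cannot be told apart. Changes in RNA per cell and changes in which strains made up the pool also cannot be told apart in such bulk RNA.

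Ergosterol is the main sterol of yeast membranes, the counterpart of cholesterol in animals. Its synthesis starts from acetyl-CoA and runs through mevalonate to farnesyl diphosphate, which also feeds ubiquinone, dolichol, heme A and prenylated proteins. Farnesyl diphosphate is then joined to squalene, closed into lanosterol and remodeled to ergosterol, and several of these last enzymes need molecular oxygen and heme. The zinc cluster factors Upc2 and Ecm22 activate sterol genes when sterol is low, and Rox1 and Mot3 repress genes of low-oxygen growth, sterol genes among them.

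Values are RMA intensities on a linear scale, in which arrays were brought to a common distribution, with array medians from 316 to 351. Between both arrays of a time, log2 intensities correlated across probe sets at r = 0.978 to 0.986. The carbon source change was visible in its known markers. HXT1, for a glucose transporter, read 90.4 and 215 at 4 h, against 2547 and 3268 at 0 h, and ADH2, for the alcohol dehydrogenase of ethanol use, read 11240 and 11182 at 4 h, against 83.8 and 25.9 at 0 h. Of 16 haploid-specific genes, which a diploid should keep off, 1 was called higher and 7 lower at 0.5 h (30.1% and 32.7% of all genes), and none was called higher and 7 lower at 12 h (21.4% and 22% of all genes). Their summed intensity was 1449 to 1802 at 0 h, 1035 to 1124 at 0.5 h, 1015 to 1152 at 1 h, 855 to 885 at 4 h and 808 to 833 at 12 h. Their part in the results that follow was not tested.

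Sterol genes were more often lower than higher from 0.5 to 4 h, and as often higher as lower at 12 h. At 0.5 h 24 of the 32 genes differed from 0 h, 16 of them lower and 8 higher, with a median log2 fold change of −0.54 against −0.05 over all genes. The background was high: 62.9% of all genes were called at this time, 32.7% lower and 30.1% higher. At 1 h 25 members were called (62.7% of all genes), 17 lower and 8 higher (33.4% and 29.3% of all genes). At 4 h 18 were called (42.6% of all genes), 14 lower and 4 higher (23.2% and 19.4%). At 12 h 13 were called (43.4% of all genes), 6 lower and 7 higher (22% and 21.4%), and the median over the 32 genes was 0.03. The share called in either direction was thus not far from the background, and the excess was on the lower side from 0.5 to 4 h. These calls are from limma fitted to all 10 arrays, at a Benjamini-Hochberg adjusted p under 0.05 over all 5449 genes. The 4 comparisons share the 0 h arrays. Over the time course 29 of the 32 genes differed between some times (limma F test, 70.6% of all genes), all but ERG10, ERG12 and MOT3. The calls at 0.5 and 1 h rested least on single arrays: 21 to 24 and 17 to 26 members were called when an array was left out, compared with 7 to 19 at 4 h and 8 to 14 at 12 h. The lowest of these counts came without 0.5 h replicate 1 or 0 h replicate 1 (21 at 0.5 h), without 0 h replicate 1 (17 at 1 h), without 4 h replicate 2 (7 at 4 h) and without 0 h replicate 2 (8 at 12 h). The 4 h count was also lower without 0 h replicate 1. Calls over all genes fell in each of these fits as well.

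**Figure D1:**
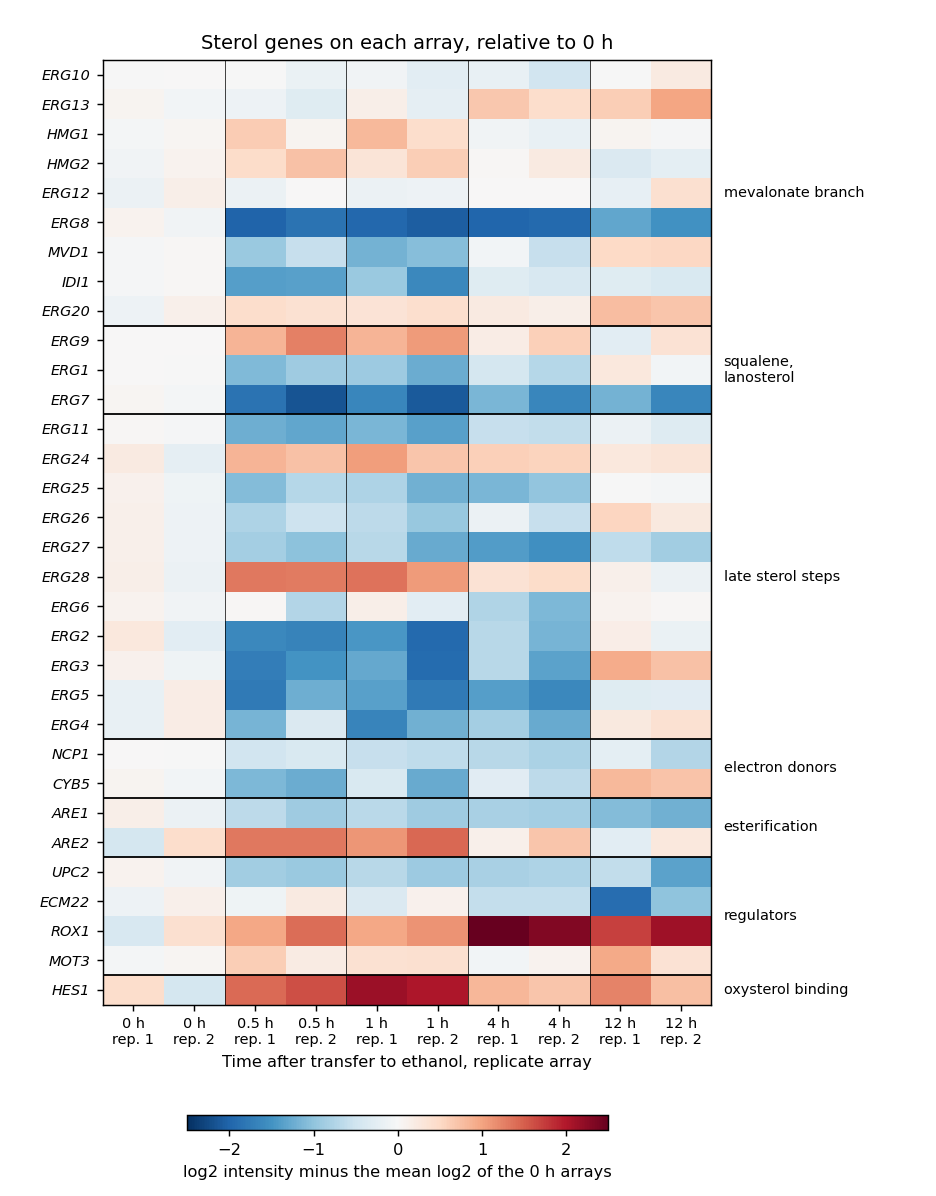
Log2 intensity of each of the 32 genes (rows, grouped by role) on each of the 10 arrays (columns, by time after transfer in h), minus the mean log2 of the gene's 0 h arrays; blue is lower and red is higher. Blue fills most enzyme rows from 0.5 to 4 h and is mostly gone at 12 h, while ERG9, ERG24, ERG28, ARE2, ROX1 and HES1 are red at 0.5 h.

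Falls were frequent among the late sterol steps, from lanosterol to ergosterol. Of their 11 genes 8 were lower and 2 higher at 0.5 h and at 1 h, 8 were lower and 1 higher at 4 h, and 1 was lower and 1 higher at 12 h. The share of all genes that was lower at these times was 32.7%, 33.4%, 23.2% and 22%. At 4 h 9 late genes were called, with the largest losses without 4 h replicate 2 or 0 h replicate 1. The 2 called at 12 h were fewer when any single array of 0 or 12 h was left out. Calls over all genes were also fewer in these fits. ERG11 (YHR007C), for the cytochrome that demethylates lanosterol and the target of azole drugs, read 3527 and 3346 at 0 h, 1467 and 1393 at 0.5 h, 1547 and 1333 at 1 h, 2310 and 2237 at 4 h, and 3090 and 2766 at 12 h. Its arrays at 0.5, 1 and 4 h all lay below those at 0 h, and at 0.5 h its log2 fold change was −1.27 (limma standard error 0.15 and adjusted p = 8.45e-05).

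The deepest early falls of this branch were in the isomerase and desaturase genes. ERG2 (YMR202W), for the sterol isomerase, read 490 and 468 at 0.5 h, against 1798 and 1241 at 0 h, which is 3.12-fold lower (log2 fold change −1.64, standard error 0.25, limma adjusted p = 0.000401). ERG3 (YLR056W), for a sterol desaturase, read 298 and 350 at 0.5 h, against 1060 and 922 at 0 h, 3.06-fold lower (−1.61, 0.26, adjusted p = 0.000527). ERG5 (YMR015C), for the other desaturase, a cytochrome, read 258 and 374 at 0.5 h, against 765 and 997 at 0 h, 2.81-fold lower. In each of these 3 genes both 0.5 h arrays lay well below both 0 h arrays. The methyl oxidase gene ERG25 (YGR060W), the first of the demethylation complex, read 1091 and 1403 at 0.5 h and 1049 and 1166 at 4 h, against 2508 and 2134 at 0 h.

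ERG27 (YLR100W), for the keto reductase of the demethylation complex, was called lower at all 4 later times. It read 866 and 731 at 0 h, 441 and 388 at 0.5 h, 495 and 332 at 1 h, 303 and 275 at 4 h, and 516 and 437 at 12 h. After 0.5 h no change between successive times passed: 4 h against 1 h was −0.49 (limma adjusted p = 0.118) and 12 h against 4 h was 0.72 (0.0596). It was the only late gene called lower at 12 h (−0.74, standard error 0.21, limma adjusted p = 0.0183), a call that was lost without 0 h replicate 1 (0.103) or 12 h replicate 2 (0.0919). ERG26 (YGL001C), for the sterol dehydrogenase of the same complex, was lower at 0.5 h (228 and 273, against 424 and 358 at 0 h), with adjusted p = 0.0222 (0.121 without 0 h replicate 1 and 0.129 without 0.5 h replicate 1).

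ERG24 and ERG28 went the other way. ERG28 (YER044C), whose product holds the demethylation enzymes together in the endoplasmic reticulum, read 310 and 253 at 0 h, 700 and 687 at 0.5 h, 714 and 582 at 1 h, 358 and 387 at 4 h, and 307 and 252 at 12 h. It was 2.47-fold higher at 0.5 h than at 0 h (1.31, standard error 0.18, limma adjusted p = 0.000197), and at 12 h the arrays overlapped those of 0 h. ERG24 (YNL280C), for the reductase that acts right after Erg11, read 1085 and 1004 at 0.5 h, against 700 and 517 at 0 h (0.80, standard error 0.19, adjusted p = 0.00479). The scaffold and the enzymes it holds thus had opposite early changes: ERG28 was higher while ERG25, ERG26 and ERG27 were lower.

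The methylation step moved later. ERG6 (YML008C), for the sterol methyltransferase, read 1129 and 988 at 0 h, 1078 and 634 at 0.5 h, 1163 and 886 at 1 h, 628 and 486 at 4 h, and 1125 and 1081 at 12 h. Its arrays at 0.5 and 1 h overlapped those of 0 h, and only those of 4 h lay apart and passed the test (−0.94, standard error 0.26, limma adjusted p = 0.0173). This call was lost without 0 h replicate 1 (0.0881) or 4 h replicate 2 (0.117). ERG4 (YGL012W), for the last enzyme of the pathway, read 928 and 1214 at 0 h, 474 and 830 at 0.5 h, 338 and 464 at 1 h, 592 and 443 at 4 h, and 1264 and 1385 at 12 h. It was lowest at 1 h (−1.42, adjusted p = 0.00196), and its call at 0.5 h (adjusted p = 0.0423) was lost without 0.5 h replicate 1 (0.323), the lower of the 2 arrays, without 0 h replicate 2 (0.21) and without either 12 h array (0.0555).

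**Figure D2:**
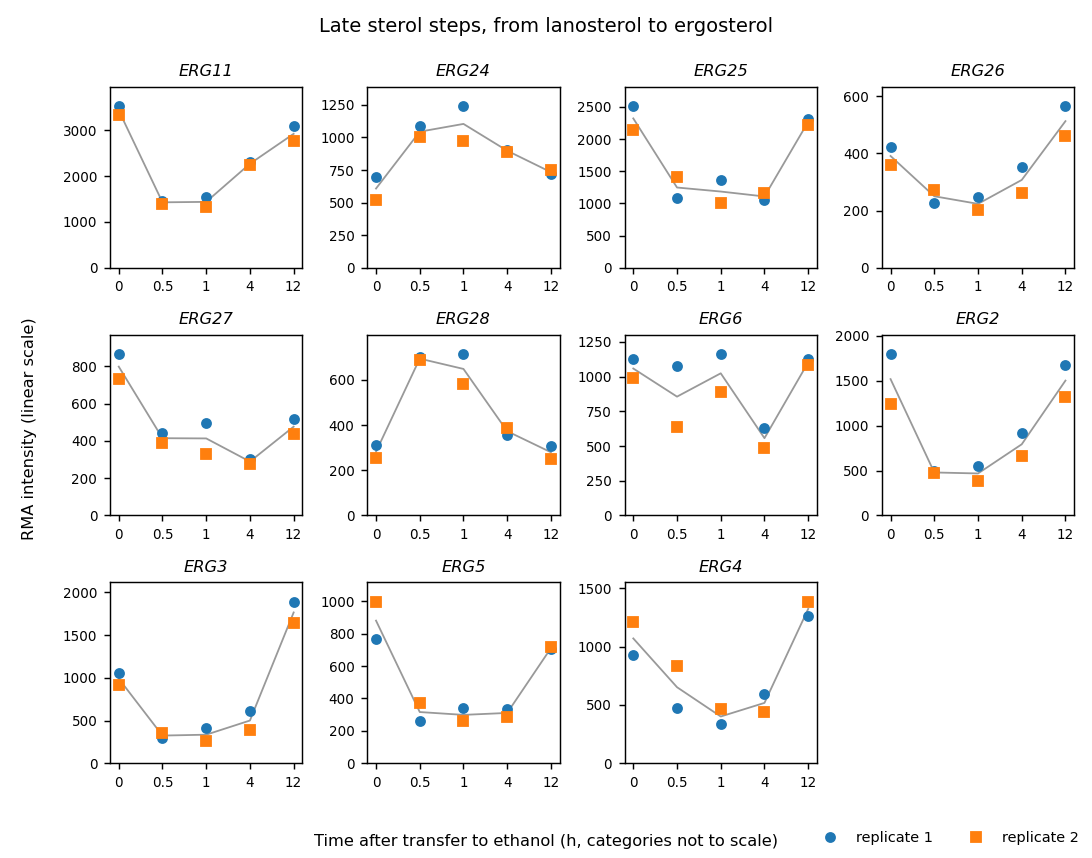
RMA intensity (linear scale, from 0) of the 11 late sterol genes against time after transfer (h, categories), with a circle for replicate 1, a square for replicate 2 and a line through the mean of both. ERG24 and ERG28 peak while most others are low, ERG6 and ERG27 are lowest at 4 h, and ERG3 is higher at 12 h (1890 and 1641) than at 0 h (1060 and 922).

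The mevalonate branch, from acetyl-CoA to farnesyl diphosphate, was mixed. Of its 9 genes 3 were lower and 2 higher at 0.5 h and at 1 h, 1 was lower and 1 higher at 4 h, and 1 was lower and 2 were higher at 12 h. The lower share was 33.3%, 33.3%, 11.1% and 11.1% at these times, against 32.7%, 33.4%, 23.2% and 22% of all genes. The higher share was 22.2%, 22.2%, 11.1% and 22.2%, against 30.1%, 29.3%, 19.4% and 21.4%. Both shares were thus near or under those of all genes. None of the higher calls at 0.5, 1 or 4 h held under all 18 alternatives given below. They were HMG2 and ERG20 at 0.5 h, HMG1 and HMG2 at 1 h, and ERG13 at 4 h. The lower calls that held were ERG8 and IDI1 at 0.5 h, ERG8, MVD1 and IDI1 at 1 h, and ERG8 at 4 h. The falls were in neighboring steps. ERG8 (YMR220W), for phosphomevalonate kinase, read 1984 and 1763 at 0 h, 466 and 517 at 0.5 h, 481 and 449 at 1 h, 476 and 484 at 4 h, and 756 and 651 at 12 h. All 8 later arrays lay below both 0 h arrays, and the gene was 3.81-fold lower at 0.5 h (−1.93, standard error 0.15, limma adjusted p = 1.03e-05) and still 2.67-fold lower at 12 h (−1.41, 0.15, adjusted p = 0.000108).

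MVD1 (YNR043W), for the decarboxylase that acts after Erg8, had a shallower and shorter fall. It read 518 and 533 at 0 h, 278 and 353 at 0.5 h, 231 and 252 at 1 h, 498 and 353 at 4 h, and 740 and 754 at 12 h. Its change at 0.5 h was −0.75 (standard error 0.20, limma adjusted p = 0.00809, or 0.0697 without 0.5 h replicate 1). IDI1 (YPL117C), for the isomerase of the next step, read 564 and 571 at 0.5 h, against 1450 and 1491 at 0 h (−1.37, standard error 0.21, adjusted p = 0.000355), and 1185 and 1120 at 4 h. At 4 h its change from 0 h was −0.35 and did not pass (adjusted p = 0.204).

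At the first and last steps of the branch no gene was called lower. ERG10 (YPL028W), for the thiolase, read between 1291 and 2125 on all 10 arrays, and ERG12 (YMR208W), for mevalonate kinase, between 319 and 482, and neither passed at any time. ERG13 (YML126C), for HMG-CoA synthase, read 1014 and 863 at 4 h and 972 and 1254 at 12 h, against 670 and 606 at 0 h. It was higher at 12 h (0.79, standard error 0.20, limma adjusted p = 0.00962, or 0.0596 without 0 h replicate 2 and 0.0589 without 12 h replicate 2). ERG20 (YJL167W), for farnesyl diphosphate synthase, read 1395 and 1325 at 12 h, against 750 and 896 at 0 h, 1.66-fold higher (0.73, standard error 0.15, adjusted p = 0.00381). Both genes had all their 12 h arrays above their 0 h arrays.

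HMG-CoA reductase, a main control point of the pathway and the target of statins, has 2 isozymes, and neither gene was called lower at any time. HMG1 (YML075C), the isozyme gene known for aerobic growth, read 342 and 365 at 0 h, 548 and 371 at 0.5 h, 621 and 481 at 1 h, 333 and 311 at 4 h, and 370 and 345 at 12 h. It was higher at 1 h (0.63, limma adjusted p = 0.0244, or 0.0975, 0.0631 and 0.16 without 0 h replicate 1, 0 h replicate 2 and 1 h replicate 1). HMG2 (YLR450W), the isozyme gene known for low oxygen, read 347 and 395 at 0 h, 508 and 618 at 0.5 h, 462 and 566 at 1 h, 379 and 432 at 4 h, and 287 and 313 at 12 h. It was higher at 0.5 h (0.60, standard error 0.18, adjusted p = 0.0147, or 0.0837 without 0 h replicate 1 and 0.109 without 0.5 h replicate 2). The log2 change of HMG1 minus that of HMG2 was 0.18 and −0.67 on the 0.5 h arrays and 0.44 and 0.21 on the 12 h arrays, so the replicates differed in sign early.

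Between the branches lie the genes of squalene and lanosterol formation, and these 3 went both ways. ERG9 (YHR190W), for squalene synthase, which commits farnesyl diphosphate to sterols, read 891 and 891 at 0 h, 1612 and 2130 at 0.5 h, 1613 and 1859 at 1 h, 1009 and 1351 at 4 h, and 744 and 1139 at 12 h. It was 2.08-fold higher at 0.5 h (1.06, standard error 0.24, limma adjusted p = 0.0039). ERG1 (YGR175C), for squalene epoxidase, was lower, with 810 and 639 at 1 h, against 1527 and 1494 at 0 h (−1.07, 0.19, adjusted p = 0.000948). ERG7 (YHR072W), for lanosterol synthase, fell about as deeply at 0.5 h as ERG8 and stayed low. It read 1589 and 1502 at 0 h, 427 and 347 at 0.5 h, 502 and 359 at 1 h, 704 and 496 at 4 h, and 682 and 496 at 12 h. It was 4.01-fold lower at 0.5 h (standard error 0.25 on the log2 scale, adjusted p = 0.000102) and 2.66-fold lower at 12 h (adjusted p = 0.00155).

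**Figure D3:**
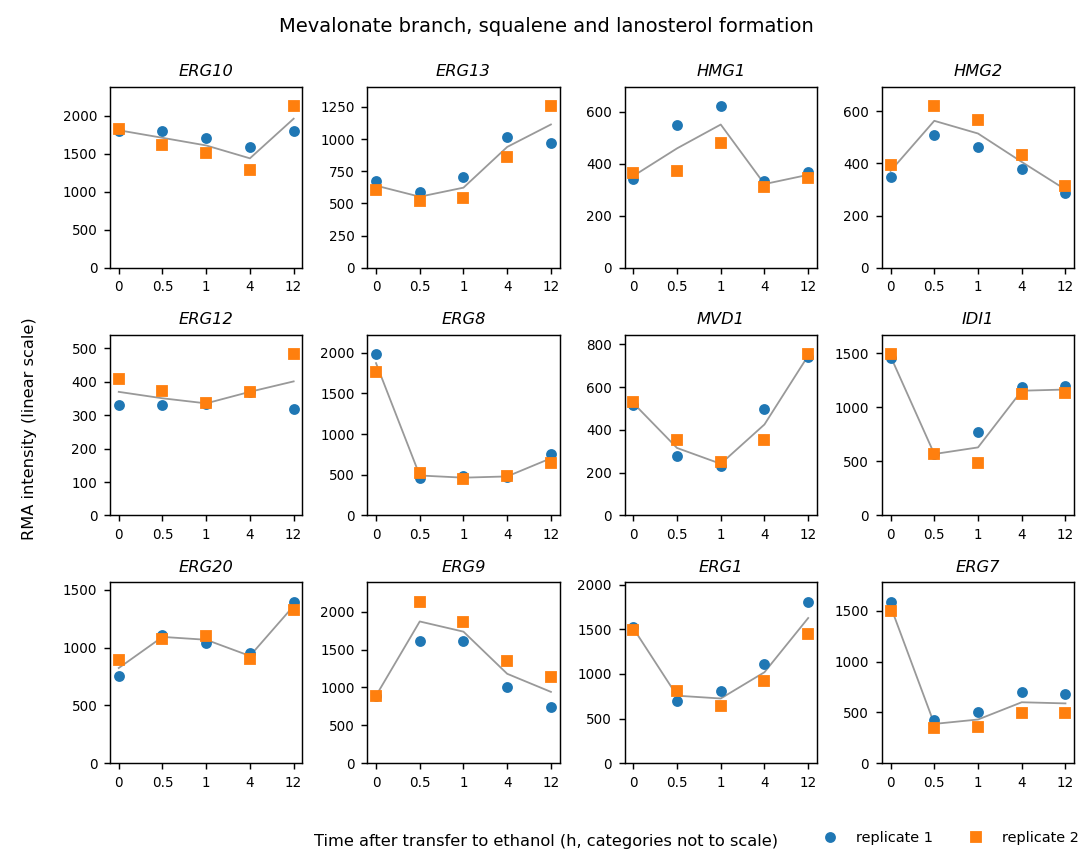
RMA intensity (linear scale, from 0) of the 9 mevalonate branch genes and of ERG9, ERG1 and ERG7 against time after transfer (h, categories), with a circle for replicate 1, a square for replicate 2 and a line through the mean. ERG8 and ERG7 stay low through 12 h, IDI1 and MVD1 dip and return, and ERG9 peaks at 0.5 and 1 h above its 0 h arrays (891 and 891).

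Set side by side, the late steps were below the mevalonate branch from 0.5 to 4 h, and at 12 h the 2 arrays differed in the sign of the gap. The median log2 fold change of the late steps was −0.90, −0.98, −0.94 and 0.00 at 0.5, 1, 4 and 12 h, and that of the mevalonate branch was −0.08, −0.13, −0.13 and 0.09. Over all genes it was −0.05, −0.06, −0.09 and −0.05. On single arrays the late median minus the mevalonate median was 0.14 and −0.14 at 0 h, −0.97 and −0.57 at 0.5 h, −0.68 and −0.96 at 1 h, −0.62 and −0.94 at 4 h, and 0.14 and −0.29 at 12 h. All 6 arrays from 0.5 to 4 h thus lay below both 0 h arrays. At 12 h 1 array lay below both and the other did not. The size of the gap depended on the summary: with means in place of medians it was −0.34, −0.39 and −0.47 at 0.5, 1 and 4 h. The means themselves were −0.68, −0.75 and −0.72 for the late steps and −0.34, −0.36 and −0.25 for the mevalonate branch at these times. Genes of a branch are not replicates, so no test was made across them.

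**Figure D4:**
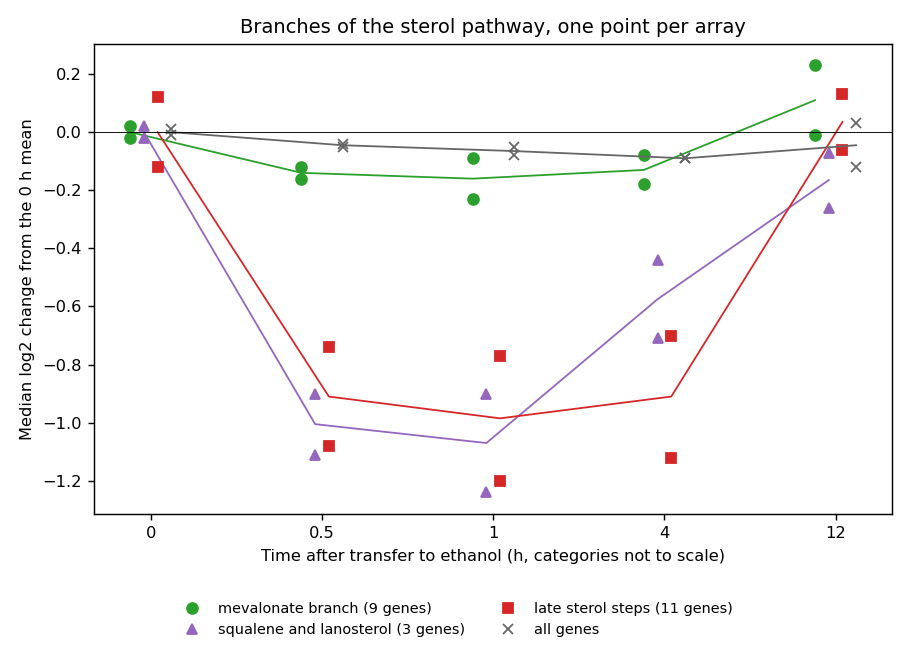
Median log2 change from the 0 h mean of the mevalonate branch (9 genes), of squalene and lanosterol formation (3 genes), of the late sterol steps (11 genes) and of all 5449 genes against time after transfer (h, categories), with 1 point per array and lines through the mean of both arrays. The late steps lie at −0.70 or lower on the 6 arrays from 0.5 to 4 h, and the mevalonate branch at −0.23 or higher.

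No member was called between 0.5 and 1 h, and most late genes came back after 4 h. Between 1 h and 0.5 h no member passed (limma, 0% of all genes, with 1 member and 90 of all genes at an unadjusted p under 0.05). Between 4 h and 1 h 9 members were called, 5 higher and 4 lower, against 27.3% of all genes (14.5% higher and 12.8% lower). IDI1 (0.91, standard error 0.21, limma adjusted p = 0.0128) and ERG11 (0.66, 0.15, adjusted p = 0.0122) were higher, and HMG1, ERG28, ERG6 and HES1 were lower. ERG13, MVD1 and ROX1 were the other 3 that were higher. Higher at 0.5 h than at 0 h and lower at 4 h than at 1 h were ERG28 and HES1, 2 of the 32 members, against 9.86% of all genes. This step rested on single arrays. Far fewer calls were made without 4 h replicate 1 or without 1 h replicate 2, among the members and over all genes alike.

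Between 12 h and 4 h 10 members were higher and none was lower, while 6.83% of all genes were called higher and 4.5% lower. Of the 11 late genes 7 were higher: ERG25, ERG26, ERG6, ERG2, ERG3, ERG5 and ERG4. The other 3 were MVD1, ERG20 and CYB5. ERG3 read 1890 and 1641 at 12 h, against 609 and 391 at 4 h, 3.61-fold higher (1.85, standard error 0.26, limma adjusted p = 0.00225), and it passed its 0 h arrays as well (0.83, adjusted p = 0.0284, or 0.0584 to 0.134 without any single array of 0 or 12 h). ERG4 was 2.58-fold higher at 12 h than at 4 h (1.37, adjusted p = 0.0152) and ERG5 2.30-fold (1.20, adjusted p = 0.0103). Lower at 0.5 h than at 0 h and higher at 12 h than at 4 h was true of 8 members, and of 2.79% of all genes: MVD1, ERG25, ERG26, ERG2, ERG3, ERG5, ERG4 and CYB5. The count of 10 was carried by few arrays. It was 1 without 12 h replicate 1, with only ERG3 left, 2 without 4 h replicate 2 and 6 without 4 h replicate 1, when 5.54%, 4.73% and 7.34% of all genes passed in either direction, compared with 11.3% in the full fit. Without 12 h replicate 2 it was 8, of which 4 were among the 10. The late genes called were then 1, 2, 4 and 3 in these 4 fits, in place of 7. In each of the 10 genes both 12 h arrays lay above both 4 h arrays, so leaving out 1 array could not reverse a change.

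The genes of the 5 enzymes that use oxygen as a substrate, Erg1, Erg11, Erg25, Erg3 and Erg5, were lower through 4 h. All 5 genes were called lower than at 0 h at each of 0.5, 1 and 4 h, and their median log2 fold changes were −1.27, −1.26 and −1.02. Over all genes 32.7%, 33.4% and 23.2% were lower at these times. Falls of this size were also seen in genes of enzymes that do not use oxygen, such as ERG2 (−1.64 at 0.5 h) and ERG8 (−1.93). At 4 h the calls of ERG1, ERG11 and ERG3 were lost without 0 h replicate 1 (0.118, 0.0569 and 0.0709) or 4 h replicate 2 (0.216, 0.0724 and 0.105), and that of ERG1 also without 0 h replicate 2 (0.108). At 12 h 1 of them, ERG3, was higher and 4 were not called, with a median of −0.03. Their electron donors passed at different times. CYB5 (YNL111C), for the cytochrome b5 that serves the desaturases and the methyl oxidase, read 199 and 180 at 0 h, 87.1 and 79.8 at 0.5 h, 144 and 79.3 at 1 h, 155 and 120 at 4 h, and 330 and 310 at 12 h. It was lower at 0.5 h (−1.18, standard error 0.26, limma adjusted p = 0.00311), was not called at 4 h (−0.47, adjusted p = 0.174) and was higher at 12 h (0.76, adjusted p = 0.0397, lost without any single array of 0, 0.5 or 12 h, at 0.0541 to 0.157). NCP1 (YHR042W), for the reductase that serves Erg11 and Erg5, read 933 and 872 at 4 h, against 1512 and 1501 at 0 h (−0.74, standard error 0.18, adjusted p = 0.00954, or 0.0628 without 4 h replicate 2), and was not called at 0.5 h (−0.43, adjusted p = 0.0601). At 12 h its arrays, 1273 and 905, were both still below those of 0 h, with adjusted p = 0.0515.

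Among the regulators the activator gene UPC2 was lower and the repressor gene ROX1 was higher at each later time. The other activator gene, ECM22, was called lower only at 12 h. UPC2 (YDR213W) read 254 and 222 at 0 h, 131 and 125 at 0.5 h, 148 and 127 at 1 h, 135 and 139 at 4 h, and 155 and 94.4 at 12 h. All 8 later arrays lay below both 0 h arrays, and it was lower at each time, with changes of −0.89 at 0.5 h (standard error 0.22, limma adjusted p = 0.00621) and −0.98 at 12 h (adjusted p = 0.0066). Its calls at 1 and 4 h were lost without 0 h replicate 1 (0.0673 and 0.0955), without 1 h replicate 2 at 1 h (0.0727), and without either 4 h array at 4 h (0.0689 and 0.0713). At 12 h UPC2 was called lower and most late genes were not called. Whether the UPC2 mRNA level bears on the late genes was not tested.

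ECM22 (YLR228C), the paralog of UPC2, fell later. It read 205 and 247 at 0 h, 209 and 263 at 0.5 h, 176 and 241 at 1 h, 149 and 150 at 4 h, and 60.5 and 112 at 12 h. The 0.5 and 1 h arrays overlapped those of 0 h, and the gene was 2.73-fold lower at 12 h (−1.45, standard error 0.29, limma adjusted p = 0.003). The log2 change of UPC2 minus that of ECM22 was −0.76 and −1.15 on the 0.5 h arrays, and 1.28 and −0.33 on the 12 h arrays.

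ROX1 (YPR065W), for the heme-dependent repressor of low-oxygen genes, rose the most of the 32 genes at 4 h. It read 258 and 454 at 0 h, 666 and 896 at 0.5 h, 668 and 747 at 1 h, 1913 and 1710 at 4 h, and 1115 and 1491 at 12 h. All 8 later arrays lay above both 0 h arrays. Its log2 fold change was 1.17 at 0.5 h (limma adjusted p = 0.00441), 1.05 at 1 h (0.00821, or 0.0666 without 0 h replicate 1) and 2.40 at 4 h, which is 5.29-fold (standard error 0.28, adjusted p = 0.000169). It was 1.91 at 12 h (adjusted p = 0.000506). MOT3 (YMR070W), the other repressor, read 247 and 164 at 12 h, against 124 and 133 at 0 h, and was called higher at 12 h (0.65, adjusted p = 0.0371). That call rested on single arrays (0.138 without 0 h replicate 1, 0.0923 without 0 h replicate 2, 0.217 without 12 h replicate 1 and 0.0525 without either 1 h array).

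**Figure D5:**
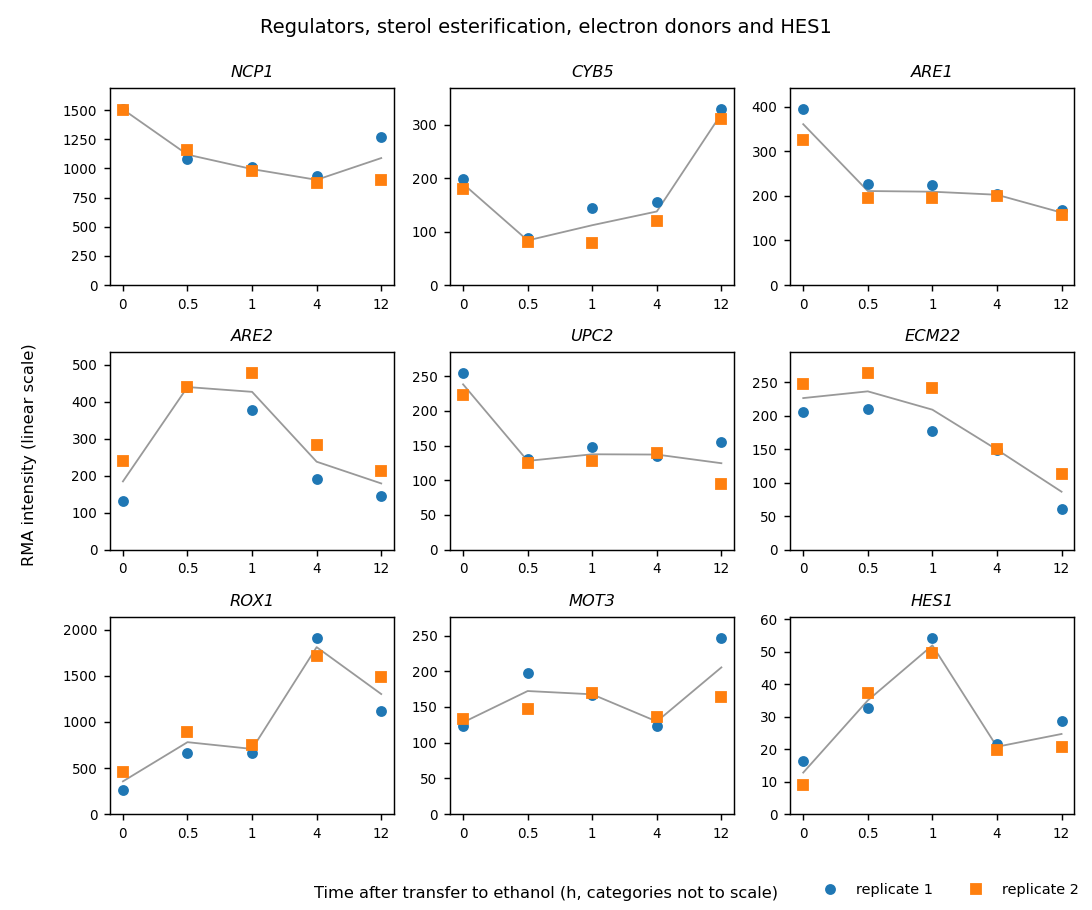
RMA intensity (linear scale, from 0) of the electron donors NCP1 and CYB5, the esterification genes ARE1 and ARE2, the regulators UPC2, ECM22, ROX1 and MOT3, and HES1 against time after transfer (h, categories), with a circle for replicate 1, a square for replicate 2 and a line through the mean. UPC2 and ARE1 are lower at every later time, ECM22 is lowest at 12 h, ARE2 peaks at 0.5 and 1 h, and ROX1 peaks at 4 h (1913 and 1710).

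The 2 sterol esterification genes, whose enzymes join sterol to fatty acid for storage in lipid droplets, had opposite early changes. ARE1 (YCR048W) read 396 and 326 at 0 h, 227 and 195 at 0.5 h, 224 and 195 at 1 h, 205 and 200 at 4 h, and 168 and 157 at 12 h. Every later array lay below both 0 h arrays, by a log2 fold change of −0.77 at 0.5 h (standard error 0.17, limma adjusted p = 0.00272) and −1.14 at 12 h (adjusted p = 0.000525). ARE2 (YNR019W), the isozyme gene known as the main one in aerobic cells, read 130 and 239 at 0 h, 439 and 441 at 0.5 h, 377 and 477 at 1 h, 191 and 284 at 4 h, and 146 and 212 at 12 h. It was 2.49-fold higher at 0.5 h (1.32, standard error 0.31, adjusted p = 0.00472), also at 1 h (1.26, adjusted p = 0.00597, or 0.0504 without 0 h replicate 1), and overlapped 0 h at 4 and 12 h. The log2 change of ARE1 minus that of ARE2 was −1.98 and −2.20 on the 0.5 h arrays and −0.82 and −1.46 on the 12 h arrays, compared with 0.58 and −0.58 at 0 h.

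HES1 (YOR237W), for an oxysterol-binding protein of the family that moves sterols between membranes, was dim and was higher at every later time. It read 16.5 and 9.09 at 0 h, 32.7 and 37.4 at 0.5 h, 54.3 and 49.7 at 1 h, 21.7 and 19.9 at 4 h, and 28.8 and 20.6 at 12 h. Its later arrays all lay above both 0 h arrays, with log2 fold changes of 1.51 at 0.5 h (standard error 0.27, limma adjusted p = 0.000969) and 2.08 at 1 h (adjusted p = 0.000157). At 0 h 3.51% of genes were dimmer, and the later changes were smaller with a constant added before log2. The change at 4 h was 0.76 (adjusted p = 0.0484) and 0.24 (0.175) with 32 added to each intensity, and it was lost without either array of 0.5, 1 or 4 h or without 0 h replicate 2 (0.0631 to 0.336). That at 12 h, 0.99 (adjusted p = 0.0159), was 0.34 (0.0654) with 32 added, and was lost without 0 h replicate 2 (0.112) or 12 h replicate 1 (0.0995).

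Lists of genes around the pathway were read against the share of all genes called, which was 30.1% higher and 32.7% lower at 0.5 h, 19.4% and 23.2% at 4 h, and 21.4% and 22% at 12 h. Of 5 genes of sterol ester hydrolysis and sterol acetylation, 1 was higher and 3 were lower at 0.5 h, and 1 was higher and 2 lower at 4 h. TGL1 (YKL140W), for a steryl ester hydrolase, read 376 and 412 at 4 h, against 235 and 216 at 0 h (0.80, limma adjusted p = 0.0037). YEH1 (YLL012W), for another such hydrolase, read 51.3 and 41.8 at 4 h, against 146 and 180 at 0 h (−1.81, adjusted p = 0.000645). ATF2 (YGR177C), for an acetyltransferase that acts on sterols, was also lower at 4 h (−1.78, adjusted p = 0.0108). It was dim, with a mean of 77.0 at 0 h and 22.4 at 4 h.

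The list of sterol transport and uptake held 20 names, with LAM1 counted again under its other name YSP1. Of these, 7 were higher and 1 lower at 0.5 h, and 4 were higher and 5 lower at 12 h. As shares of the 20 names, 35% were higher and 5% lower at 0.5 h, when 30.1% and 32.7% of all genes were. The 20% and 25% of 12 h were near the 21.4% and 22% of all genes. The genes with the largest changes at 4 or 12 h, NPC2, PRY2 and PRY1, were higher. The 5 that were lower at 12 h were YSP2, NCR1, AUS1, PDR11 and ARV1, the last with −0.99 (limma adjusted p = 0.0032). NPC2 (YDL046W), whose human counterpart carries sterol in lysosomes, read 1777 and 2257 at 4 h, against 920 and 629 at 0 h (1.40, limma adjusted p = 0.00072). PRY2 (YKR013W), for a secreted sterol-binding protein, read 1352 and 1547 at 12 h, against 125 and 108 at 0 h, 12.4-fold higher (3.64, standard error 0.25, adjusted p = 8.53e-06). PRY1 (YJL079C), its relative, read 3058 and 2745 at 12 h, against 887 and 517 at 0 h (2.10, adjusted p = 0.000159). PRY1 was not called at 0.5 h (−0.15) or at 4 h (−0.67, limma adjusted p = 0.0522).

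Of 14 regulators and scaffolds near the pathway, 3 were higher and 8 lower at 0.5 h, and 2 were higher and 6 lower at 12 h. The lower share was 57.1% and 42.9% at these times, against 32.7% and 22% of all genes. SUT1 (YGL162W), for a factor that promotes sterol uptake, read 128 and 71.7 at 12 h, against 282 and 256 at 0 h (−1.49, limma adjusted p = 0.00187). INO2 (YDR123C), for an activator of phospholipid genes, was lower at 4 h (−1.35, adjusted p = 0.00119), and MGA2 (YIR033W), for the membrane-bound activator of the desaturase gene OLE1, was higher at 12 h (1.35, adjusted p = 0.000286).

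Of 16 low-oxygen and Rox1 genes, 2 were higher and 8 lower at 0.5 h and likewise 2 and 8 at 12 h, and the list's median log2 fold change was −0.44 and −0.67 at these times. The lower share was 50% at both, against 32.7% and 22% of all genes. SUT1 and SUT2 are in this list and also in that of regulators and scaffolds. Both were lower at 0.5 h, and SUT1 also at 12 h, so the 2 lists are not separate. Some genes counted as lower at 12 h were dim. The mean of AAC3 was 27.6 at 0 h and 16.7 at 12 h, and that of PAU24 was 41.8 and 27.2. FET4 (YMR319C), for a low-affinity iron transporter, read 29.2 and 26.7 at 12 h, against 440 and 299 at 0 h, lower on both arrays (−3.70, standard error 0.22, limma adjusted p = 5.06e-06). COX5B (YIL111W), for the low-oxygen form of a cytochrome c oxidase subunit, read 107 and 81.6 at 12 h, against 1412 and 930 at 0 h, 12.3-fold lower (−3.62, adjusted p = 1.2e-05), and TIR2 (YOR010C), for a cell wall protein, was 6.24-fold lower. The 2 that were higher at 12 h were OLE1, for the fatty acid desaturase (2.43, adjusted p = 1.2e-05), and HEM13, for an oxygen-using enzyme of heme synthesis (1.05, adjusted p = 0.0111). They are named after their values were seen.

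Of 14 users of farnesyl diphosphate and related isoprenoids, 4 were higher and 6 lower at 0.5 h and 4 higher and 5 lower at 12 h. The shares at 0.5 h, 28.6% and 42.9%, were not far from the 30.1% and 32.7% of all genes. SRT1 (YMR101C), for a prenyltransferase of dolichol synthesis, read 58.0 and 56.1 at 12 h, against 18.7 and 12.7 at 0 h (1.89, limma adjusted p = 0.000221). COX10 (YPL172C), whose enzyme puts the farnesyl tail on heme, was higher at 12 h (0.92, adjusted p = 0.00294), and STE14 (YDR410C), for the methyltransferase of farnesylated proteins, was lower (−1.07, adjusted p = 0.00189). Of 20 sphingolipid genes 6 were higher and 3 lower at 0.5 h (30.1% and 32.7% of all genes), and 1 was higher and 6 lower at 12 h (21.4% and 22% of all genes). The hydroxylase genes SUR2 (YDR297W; −1.65, adjusted p = 0.00022) and SCS7 (YMR272C; −1.38, adjusted p = 0.000939) were lower at 12 h, and the ceramidase gene YPC1 (YBR183W) was higher at 4 h (1.39, adjusted p = 0.000815).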

How the data were processed

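The 10 Affymetrix arrays, 2 at each of 5 times, gave relative mRNA levels. The authors read the arrays with MAS 5.0 and used RMA from BioConductor (version not given in the sources used here) for background adjustment, normalization and probe set summarization. The deposited values are RMA intensities on a linear scale. Of 5716 probe sets, 5498 carry 1 gene symbol in the platform table and 218 carry none. The brightest probe set of each gene was kept, which left 5449 genes, and 12 symbols were updated to assembly R64. Log2 intensities, without further scaling or filter, entered 1 limma fit over all arrays (limma 3.58.1, R 4.3.3, 5 residual and 4.33 prior degrees of freedom, prior SD 0.197), with Benjamini-Hochberg adjustment over all genes within each comparison. Every later time was set against 0 h and, from 1 h on, against the time before it. The fit was tried on simulated arrays with planted changes. Their noise was drawn independently for each array, while deviations of same-numbered arrays in the data correlated, so this gives no error rate for the data. The number of arrays limits the precision.

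The members and lists were chosen from general knowledge of yeast with earlier results of these data known. All 32 members were named, and of each neighboring list up to 3 genes with the largest change past the threshold at 4 or 12 h, with OLE1 and HEM13 added after their values were seen. Per-array values cover members past the threshold with a change of 1 log2 unit or more, the regulators and both pairs of isozymes, and further members for contrast. Planned promoter and protein comparisons were not made, and no sequence is used here. The alternatives were other array scalings, an intensity filter (64 or more on 2 arrays, which leaves 31 members without HES1), 32 added before log2, the mean of all probe sets, a trended robust prior, only the 2 times compared, the replicate number as a block, and each array left out in turn. Figures were drawn with matplotlib 3.10.9.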

Additional observations from a re-analysis of the deposited data

How the results depend on the processing

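Of 80 member calls against 0 h, 50 held under all 18 alternatives in which the member was tested, and none reversed. Where the arrays of both times lay apart, leaving out 1 array could not reverse a call. The calls that held were 19 of 24 at 0.5 h, 17 of 25 at 1 h, 7 of 18 at 4 h (ERG8, ERG7, ERG25, ERG27, ERG5, ARE1 and ROX1) and 7 of 13 at 12 h (ERG8, ERG20, ERG7, ARE1, UPC2, ECM22 and ROX1). Most losses, 90 of 102, came from leaving out 1 array, when the lone array of that time is assumed to vary like the others. Counts of members called over these fits ranged from 21 to 24 at 0.5 h, 17 to 26 at 1 h, 7 to 19 at 4 h, 8 to 14 at 12 h, 1 to 10 for 4 h against 1 h, 1 to 9 for 12 h against 4 h and 25 to 28 over the time course. With only the arrays of the 2 times, 6 members passed for 12 h against 4 h in place of 10, when 6.48% of all genes passed in place of 11.3%. With the replicate number as a block the counts were 25, 26, 19 and 14 against 0 h, 15 in place of 9 for 4 h against 1 h and 15 in place of 10 for 12 h against 4 h. The share of all genes rose as well, to 68.6%, 68.8%, 50% and 51.4% against 0 h. It was 36.6% in place of 27.3% for 4 h against 1 h, and 19.6% in place of 11.3% for 12 h against 4 h. Deviations of same-numbered arrays correlated at 0.027 to 0.565 over 10 pairs of times, all positive and 2 of them under 0.1. Which arrays share a culture is not stated, and the number was not taken as a pairing.

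The mevalonate median at 0.5 h was −0.15 after quantile normalization, and −0.16 to −0.08 with an array left out. With means over members the mevalonate branch was at −0.34, −0.36 and −0.25 at 0.5, 1 and 4 h, and the late steps minus it were at −0.34, −0.39 and −0.47. At 12 h the sign of both branches and of their difference was not stable. The late steps were at 0.05 by means and 0.02 with ERG9, ERG1 and ERG7 included, and the difference by means was 0.03. Leaving out an array gave −0.03 to 0.23 for the mevalonate branch, −0.11 to 0.14 for the late steps and −0.29 to 0.16 for the difference at 12 h. From 0.5 to 4 h the late steps lay at −1.20 to −0.70 and the difference at −0.98 to −0.57 in these fits.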
